A study of Mus musculus with 4 samples.

Results

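Ltbp1, Ltbp2, Ltbp3, Ltbp4, Inhba, Fst, Smad7, Skil and Tgfbi are genes of the TGF-beta and activin pathway, and their levels were described across the cells of the embryonic mouse knee. They were chosen by name, and they are 9 of the 32285 genes in the deposited count tables. All 9 were found by symbol and identifier in each library.

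The study asked how glucose uptake bears on the formation of the joint interzone, the band of mesenchyme that forms where a joint will cleave the limb cartilage. Presumptive knee regions of mouse hindlimbs were dissected and their cells profiled by droplet single-cell RNA sequencing, which counts messenger RNA molecules by unique molecular identifiers (UMIs) read at the 3′ ends of transcripts. There were 4 libraries and 1 library per group, so no difference between groups has a replicate check. A control library without Cre came from E13.5 embryos and another from E14.5 embryos. The library labelled G1KO, also E14.5, carried Prx1cre with both floxed alleles of Glut1 and 1 floxed allele of Glut3, written Prx1cre;Glut1f/f;Glut3f/+. The library labelled dKO, of the same age, carried Prx1cre with both floxed alleles of each transporter, written Prx1cre;Glut1f/f;Glut3f/f. Prx1Cre acts in the limb bud mesenchyme, so blood, endothelial and muscle cells were not its targets, and the controls carried no Cre. The number of embryos pooled per library is not given in the sources used here, and embryos of both sexes were used in the study. Values for the 4 libraries are given below in the order E13.5 control, E14.5 control, G1KO and dKO.

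The libraries held 100344565, 84188147, 97110697 and 91574038 UMIs in 12769, 9707, 11690 and 11602 barcodes. After filtering, 12446, 9305, 11264 and 11305 cells remained, with medians of 6176.5, 7279, 6757 and 6379 UMIs. Pairs of libraries shared between 24 and 37 barcodes of kept cells, at most 0.355% of a library.

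The targeted genes were read first, in all mesenchymal cells together. Slc2a1, which encodes Glut1, measured 49.5, 67.1, 359 and 434 CPM, that is UMIs of the gene per 1000000 UMIs of the cells. Slc2a3, which encodes Glut3, measured 5.26, 3.41, 4.35 and 2.49 CPM. Slc2a1 was therefore higher in both libraries labelled as its deletion, which goes against the labels at the level of these tags. A 3′ tag outside the deleted part checks nothing, and where the deleted part lies was not examined. The mutant libraries are for that reason named by their labels throughout, and each direction drawn from them rests on the labels. The share of Gdf5-positive cells, given below, was lower in G1KO than in the E14.5 control and lowest in dKO. The study reported the same order for its Gdf5-expressing cells, which describes the phenotype and does not check the alleles. Genes of the sex chromosomes also set the libraries apart. Xist, which is made from the inactive X chromosome, measured 820, 0.207, 1020 and 899 CPM, and the Y-linked gene Ddx3y measured 20.8, 87.4, 0 and 0 CPM. The E14.5 control had thus almost no Xist, both mutant libraries had no Ddx3y UMI, and the E13.5 control had both transcripts. Sex and genotype cannot be told apart in any comparison with the E14.5 control, so the mutant libraries were also compared with each other. All 9 genes lie on autosomes.

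TGF-beta is secreted in a latent complex, in which its propeptide is bound to a latent TGF-beta binding protein that anchors it to fibrillin in the matrix. Activin A, a dimer of the subunit encoded by Inhba, signals through related receptors and the same Smad2 and Smad3 proteins, and follistatin, the product of Fst, binds and neutralises it. Smad7 and SnoN, the product of Skil, are inhibitors that the pathway induces against itself, and Tgfbi encodes a matrix protein named for its induction by TGF-beta. In limb development the pathway is known for its part in chondrogenesis, tendon and joint formation.

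Cells were sorted into classes by fixed gates on their UMIs. Cells with at least 3 UMIs of Gdf5, a growth factor of the interzone, that passed none of the gates applied before it for other cell types, are called Gdf5-positive. They numbered 956, 344, 327 and 74, or 7.68, 3.70, 2.90 and 0.655% of kept cells. Their median depths were 6453.5, 6917, 7292 and 7567.5 UMIs, so the libraries differed more in the number of these cells than in their depth. The chondrocyte class, with at least 3 UMIs of the matrix genes Acan and Matn1, held 1540, 4744, 4937 and 5990 cells. Prehypertrophic cells were gated on Ihh and Col10a1, and fibroblasts, tendon and osteogenic cells on their own markers. The osteogenic class held cartilage as well as bone markers. The 9 cartilage markers outside the gates summed to 2852, 5257, 3350 and 5486 CPM there, and the 6 bone markers to 1073, 3446, 4847 and 2399 CPM. Whether single cells held both was not tested. Mesenchymal cells past none of these gates but with at least 3 Sfrp2 UMIs are called Sfrp2-positive, and the rest ungated. Levels are CPM of a gene's UMIs summed over a class in a library, and the intervals given are exact 95% intervals that cover counting error only. Levels of different genes are not compared.

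The labels give the samples as interzone cells, and the classes were therefore checked with markers. The 7 interzone markers kept out of the gates (Osr2, Creb5, Erg, Osr1, Htra1, Gas1 and Sulf1) summed to 2749, 3119, 2240 and 1262 CPM in Gdf5-positive cells. In chondrocytes the same sum was 442, 293, 278 and 182 CPM. All 7 had UMIs in each library, with Gas1 the most abundant. The study used Osr2 and Creb5 to recognise interzone cells in these data and listed Gas1, Htra1 and Sulf1 among the genes most enriched in them. The high sum in Gdf5-positive cells of the controls is thus not independent of that choice. The 9 cartilage markers kept out of the gates were also present in Gdf5-positive cells, at 3306, 5095, 6935 and 6849 CPM, led by Col2a1. Whether the interzone and cartilage transcripts of the Gdf5-positive class came from the same cells was not tested. Within that class the interzone sum was thus lower, and the cartilage sum higher, in the mutant libraries than in the E14.5 control.

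The 4 genes of the latent TGF-beta binding protein family were read first. Ltbp1 (ENSMUSG00000001870, chromosome 17, 75005568 to 75392512, plus strand, build mm10) encodes the binding protein first found with latent TGF-beta. In Gdf5-positive cells it measured 75.7, 101, 77.9 and 66.0 CPM, with intervals of 69.9 to 82.0, 89.9 to 113, 68.3 to 88.5 and 48.8 to 87.3. In the E13.5 control this was the highest of 12 classes, and its interval lay above that of the next, the Sfrp2-positive class at 58.3 CPM. In the other libraries the Sfrp2-positive class measured 100, 85.8 and 90.9 CPM and its interval overlapped that of the Gdf5-positive class. Prehypertrophic cells were low in Ltbp1, at 9.84, 4.94, 7.28 and 4.20 CPM, close to the 8.44, 8.15 and 16.5 CPM of erythroid cells in the first 3 libraries. Erythroid cells, which are not a source of matrix proteins, were taken as a measure of what free RNA in the droplets contributes. For Inhba, Fst, Smad7 and Skil, which do not encode matrix proteins, this use is an assumption. The erythroid gate does not leave out doublets with other cells. Col2a1 measured 387, 658 and 2146 CPM in the erythroid class of the first 3 libraries, so this level differed between libraries. Free RNA below means the erythroid level. The dKO library had too few erythroid cells, under 50, for such a value.

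Ltbp2 (ENSMUSG00000002020, chromosome 12, 84783212 to 84876532, minus strand) encodes a member that does not bind latent TGF-beta and that is found with elastic fibres. It was highest in tendon cells of each library, at 4.05, 27.4, 35.9 and 10.5 CPM. In the E14.5 control and in G1KO the tendon interval, 18.4 to 39.4 and 27.7 to 45.7 CPM, lay above that of every other class. In the E13.5 control and in dKO it overlapped that of the next class. Only 2 of the 64 tendon cells of the E13.5 control held a UMI of Ltbp2. Gdf5-positive cells held only 5, 21, 8 and 3 UMIs of Ltbp2. All kept cells together held 52, 426, 354 and 271 UMIs of it, so the gene was rare at E13.5.

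Ltbp3 (ENSMUSG00000024940, chromosome 19, 5740904 to 5758532, plus strand) encodes a member that is secreted with latent TGF-beta in bone and cartilage. Gdf5-positive cells held its highest level in each of the 4 libraries, at 99.9, 148, 124 and 101 CPM, with intervals of 93.2 to 107, 135 to 163, 112 to 137 and 79.5 to 127. The next class was Sfrp2-positive each time, at 52.3, 132, 103 and 72.9 CPM. The intervals of both classes were apart in the E13.5 control and in G1KO and overlapped in the E14.5 control and in dKO.

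Ltbp4 (ENSMUSG00000040488, chromosome 7, 27305136 to 27337692, minus strand) encodes the member known for its part in elastic fibre assembly in lung and vessels. Endothelial cells held 51.3, 66.9 and 88.7 CPM in the E13.5 control, G1KO and dKO, the highest class in each of these 3, and were too few in the E14.5 control. Their interval lay above that of the next class in the E13.5 control and in dKO. In G1KO it overlapped that of the Gdf5-positive class. Gdf5-positive cells measured 29.8, 57.9, 63.7 and 32.3 CPM, with intervals of 26.1 to 33.7, 49.8 to 67.0, 55.0 to 73.3 and 20.7 to 48.1. Among Gdf5-positive cells the E14.5 control and G1KO were thus high and the E13.5 control and dKO low. Chondrocytes measured 9.44, 13.3, 11.5 and 7.45 CPM, near the 4.22, 6.98 and 9.92 CPM of erythroid cells.

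Inhba (ENSMUSG00000041324, chromosome 13, 16011851 to 16031621, plus strand) encodes the ligand subunit of activin A. Gdf5-positive cells measured 114, 182, 119 and 52.5 CPM, with intervals of 107 to 122, 167 to 198, 107 to 132 and 37.4 to 71.8. This was the highest class in each of the 4 libraries, with an interval above that of the next class, which was tendon at 40.5 CPM in the E13.5 control and Sfrp2-positive at 65.4, 51.8 and 29.2 CPM in the others. Chondrocytes held 7.23, 8.42, 6.12 and 2.40 CPM. Erythroid cells held 5.91, 1.16 and 6.61 CPM, so in the E13.5 control and in G1KO the chondrocyte level cannot be told apart from free RNA. A UMI of Inhba was found in 45.4, 54.7, 42.5 and 23.0% of Gdf5-positive cells, against 2.11, 1.10 and 4.62% of erythroid cells, whose median depths of 7566.5, 8811 and 7871 UMIs were higher. Thinned to 2000 UMIs per cell, which left out 5, 1, 1 and 1 of the Gdf5-positive cells, the shares were 19.9, 28.0, 18.0 and 6.95%, again highest in the E14.5 control and lowest in dKO.

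Fst (ENSMUSG00000021765, chromosome 13, 114452290 to 114458951, minus strand), whose product neutralises activin, had another distribution. It was highest in muscle cells of the E13.5 control, at 61.7 CPM, and muscle cells of the later libraries held 11.3, 2.98 and 7.15 CPM. Fibroblasts measured 43.6, 37.8, 54.3 and 50.2 CPM and were the highest class in G1KO and dKO. Sfrp2-positive cells, at 26.7, 58.0, 28.3 and 32.4 CPM, were highest in the E14.5 control. Gdf5-positive cells held 13.0, 20.6, 8.62 and 10.8 CPM, from 106, 64, 26 and 8 UMIs, and were not the highest class in any library.

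Smad7 (ENSMUSG00000025880, chromosome 18, 75367529 to 75395935, plus strand) encodes the inhibitory Smad that blocks the type I receptor. Its highest level was in prehypertrophic cells of the first 3 libraries, at 306, 380 and 211 CPM, and the same class held 94.9 CPM in dKO. The intervals were 293 to 319, 360 to 401, 199 to 224 and 87.2 to 103, and none overlapped. In chondrocytes Smad7 measured 199, 187, 152 and 81.5 CPM, and in Gdf5-positive cells 133, 141, 98.1 and 68.7 CPM. Osteogenic cells, at 243, 174, 148 and 142 CPM, were the highest class in dKO, with an interval that overlapped the next. Erythroid cells held 32.9, 22.1 and 38.0 CPM, below all of these.

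Skil (ENSMUSG00000027660, chromosome 3, 31095058 to 31122577, plus strand) encodes a corepressor of Smad complexes. Gdf5-positive cells measured 133, 111, 97.2 and 86.2 CPM of Skil and chondrocytes 104, 97.1, 91.3 and 65.2 CPM. In both controls these classes lay within 1.5-fold of each other. Erythroid cells held 21.1, 24.4 and 57.9 CPM in the first 3 libraries. Osteogenic cells of the E13.5 control stood apart at 218 CPM, with an interval of 198 to 238 above that of every other class, and prehypertrophic cells of dKO were low at 39.0 CPM. In the 3 E14.5 libraries the interval of the highest class overlapped that of the next.

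Tgfbi (ENSMUSG00000035493, chromosome 13, 56609523 to 56639562, plus strand) encodes the matrix protein. Gdf5-positive cells held its highest level in each library, at 385, 550, 382 and 245 CPM, with intervals of 372 to 399, 525 to 577, 360 to 404 and 211 to 284. Sfrp2-positive cells came next in each, at 186, 379, 276 and 178 CPM, and their intervals did not overlap those of the Gdf5-positive cells. The study used Tgfbi together with Gdf5, Osr2, Sfrp2 and Creb5 to recognise interzone cells in these libraries, so its place at the top is not independent of that choice. Chondrocytes measured 124, 75.3, 82.8 and 69.6 CPM and erythroid cells 35.4, 30.3 and 49.6 CPM. A UMI of Tgfbi was found in 85.0, 88.1, 83.2 and 73.0% of Gdf5-positive cells and in 10.6, 11.0 and 13.8% of erythroid cells. Thinned to 2000 UMIs, the Gdf5-positive shares were 52.2, 60.5, 50.4 and 37.5%.

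**Figure D1:**
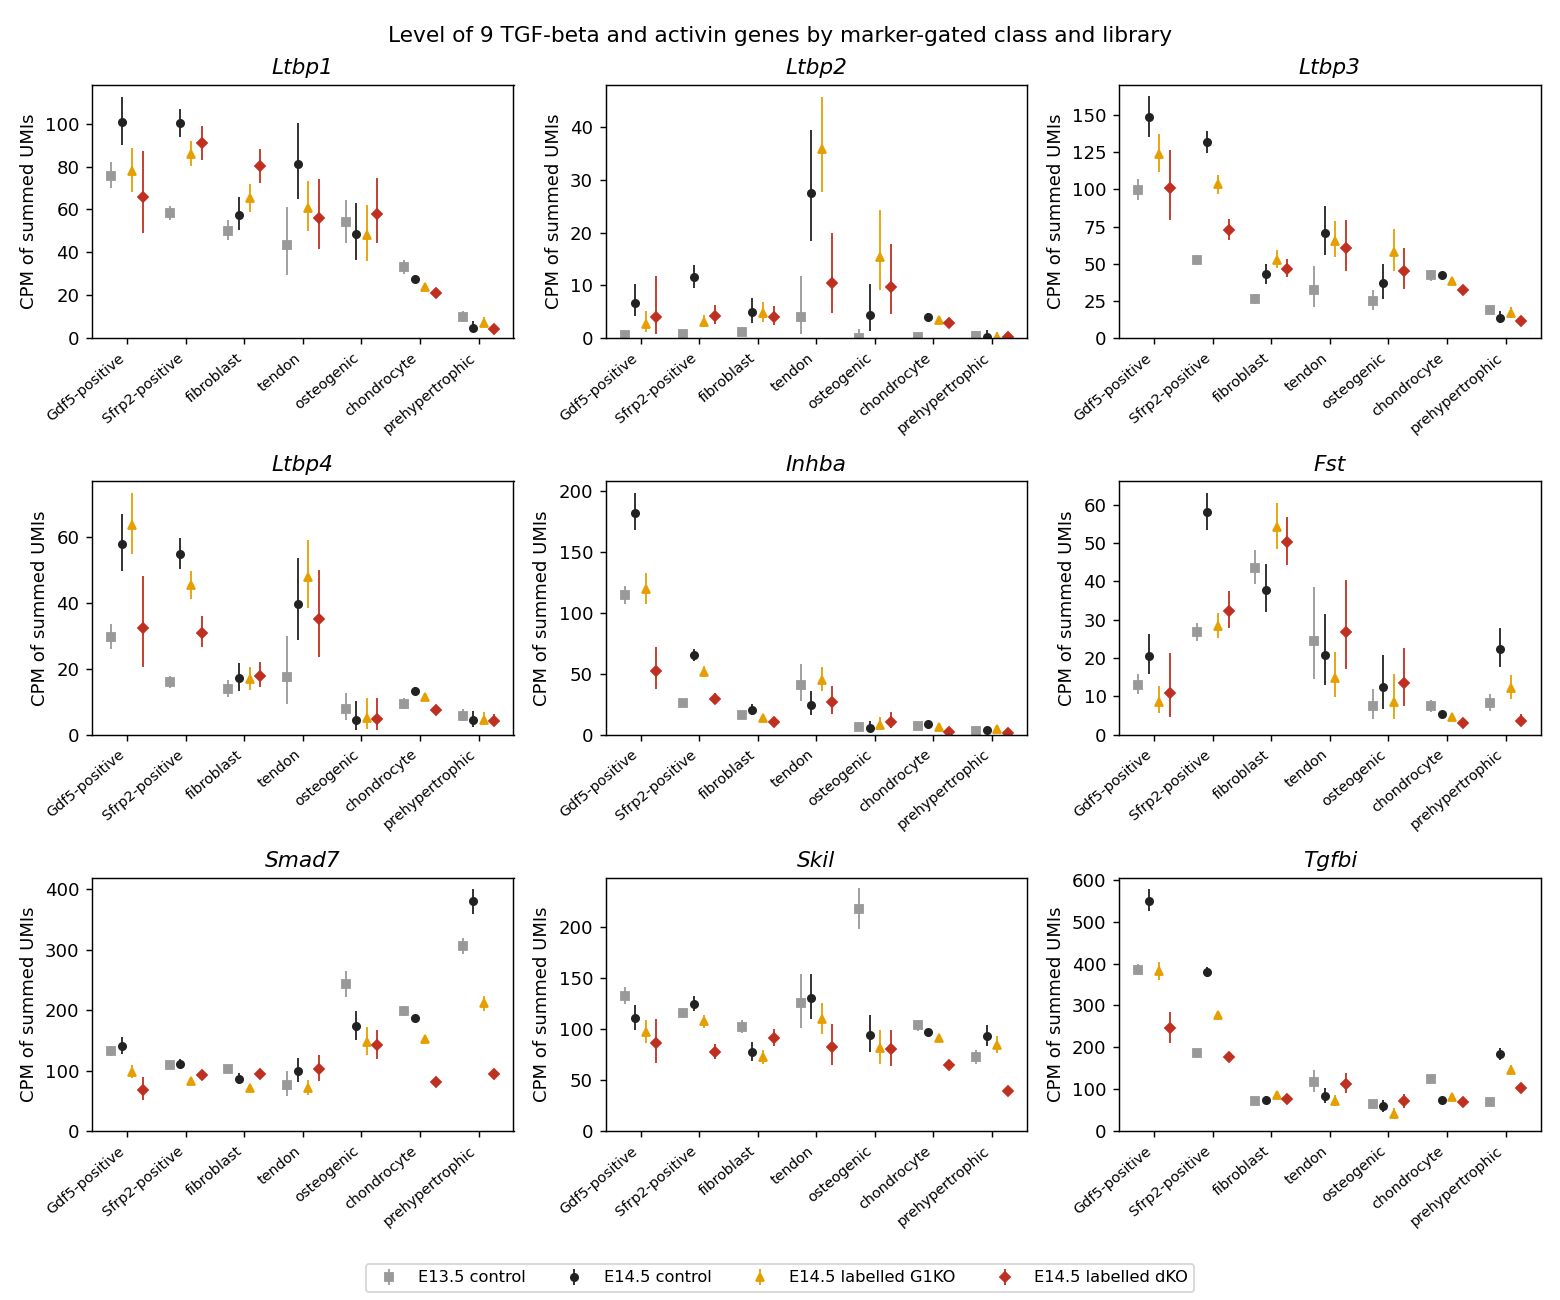
Level of each of the 9 genes in 7 mesenchymal classes, as CPM of summed UMIs on the vertical axis, with 1 point per library and bars for the exact 95% Poisson interval, which covers counting error only. Inhba and Tgfbi are highest in Gdf5-positive cells of each library, with Tgfbi between 245 and 550 CPM there, and Smad7 is highest in prehypertrophic cells of all libraries but dKO.

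The first comparison asked how Gdf5-positive cells differ from chondrocytes, within a library. In the E13.5 control, 6 of the 8 genes with at least 20 UMIs in either class were more than 1.5-fold higher in Gdf5-positive cells than in chondrocytes and 0 were lower, while 21.7% of the 12217 genes tested passed 1.5-fold in either direction. Inhba measured 114 against 7.23 CPM, a log2 ratio of 3.98 (95% interval 3.68 to 4.30). The chondrocyte levels of Inhba and Ltbp4 lay within the erythroid intervals, so these ratios compare Gdf5-positive cells with a level that cannot be told apart from free RNA. Ltbp4 had a log2 ratio of 1.66, Tgfbi 1.63, Ltbp3 1.24, Ltbp1 1.19 and Fst 0.82. Skil had a log2 ratio of 0.36, and Smad7 one of -0.58 (-0.69 to -0.48), just inside the 1.5-fold limit. Smad7 was past that limit under 7 of the alternatives tried, among them TMM scaling, at -0.61. Ltbp2, with 5 and 4 UMIs, was too low to count. Against all other mesenchymal cells in place of chondrocytes, Fst turned to a log2 ratio of -0.59, with fibroblasts alone at 43.6 CPM. The median of the 8 was 1.22, against 0.05 over all genes tested.

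In the E14.5 control the differences were wider for most of the genes. Of the 9 genes, 7 were higher in Gdf5-positive cells and 0 lower, while 35.4% of 13770 genes passed 1.5-fold in either direction. Inhba was 21.6-fold higher, at 182 against 8.42 CPM, and Tgfbi was 7.31-fold higher, at 550 against 75.3 CPM. The log2 ratios of the storage genes were 2.13 for Ltbp4, 1.87 for Ltbp1 and 1.81 for Ltbp3, and that of Fst was 1.92. Here the chondrocyte levels of Ltbp4, Fst and Ltbp2 lay within the erythroid intervals, and that of Inhba lay above. Smad7 again had a ratio below 0, -0.40 (-0.54 to -0.26), and Skil one of 0.19. Ltbp2 had a log2 ratio of 0.73, from 21 UMIs in Gdf5-positive cells, and its interval of -0.00134 to 1.38 reached 0. It lay inside 1.5-fold under 6 of the alternatives tried, and Fst did so against all other mesenchymal cells, at 0.29. The median of the 9 was 1.87, against 0.15 over all genes. TMM scaling, which balances the bulk of genes, moved these log2 ratios by -0.20, after which 6 were higher and Smad7, at -0.60, was past 1.5-fold lower.

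Other genes of the pathway were taken from a list of 47. In the E13.5 control 12 of the 41 tested were past 1.5-fold higher in Gdf5-positive cells and 5 lower, while 13.9% of all genes were higher and 7.86% lower. In the E14.5 control 19 of 42 were higher and 3 lower, while 23.3% of all genes were higher and 12.1% lower. The list medians were 0.37 and 0.38, against 0.05 and 0.15 over all genes. Among ligands, Tgfb2 measured 171 against 69.4 CPM at E13.5 and 162 against 35.3 CPM at E14.5, and Tgfb3 61.1 against 26.7 CPM at E14.5. The receptors Tgfbr1 and Tgfbr2 were higher at both ages, with Tgfbr2 at 22.7 against 14.8 and 41.8 against 18.0 CPM, and Acvr2b, an activin receptor, at E14.5. Genes of latent storage and activation other than the 9 went both ways, with 2 higher and 1 lower at each age, of 7 tested at E13.5 and 8 at E14.5. Of the inhibitors 1 was higher at E13.5 and Bambi, a pseudoreceptor, was lower, at 49.2 against 104 CPM, and 4 were higher at E14.5. These 4 were Fstl3, a relative of follistatin (34.8 against 5.85 CPM), Ski, Tgif1 and Pmepa1 (246 against 145 CPM). Targets went both ways. Tagln measured 113 against 3.69 CPM, Postn 237 against 38.7 CPM and Fn1 263 against 72.0 CPM at E14.5, and Tsc22d1 was higher as well. Ccn2, a matricellular target, was lower at both ages, at 9.34 against 39.4 and 29.0 against 59.9 CPM, and Klf10 was lower at E14.5. Of the 4 transducers 0 passed 1.5-fold at E13.5 and 1 was higher at E14.5. Of 12 immediate-early genes, which dissociation can induce, 7 were higher at each age and 1 was lower at E14.5. Their sums were 4775 against 2714 and 6508 against 4138 CPM. Of 7 ATF4 target genes 1 was higher and 3 lower at E13.5, and 0 were higher and 4 lower at E14.5. Of 10 hypoxia genes 3 were higher and 1 lower at E13.5, and 2 were higher and 1 lower at E14.5. The part of these lists in the differences was not tested.

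Cells of the mesenchyme were also grouped by their own Gdf5 count, where those with at least 3 UMIs are the Gdf5-positive class. In the E14.5 control, cells with 0, 1, 2, 3 to 4 and at least 5 Gdf5 UMIs held 101, 291, 405, 492 and 642 CPM of Tgfbi. The levels of Inhba in these groups were 12.5, 48.6, 88.3, 130 and 265 CPM, and those of Ltbp3 49.9, 92.5, 119, 138 and 165 CPM. All 3 were thus higher in each successive group. Ltbp1 measured 36.8, 71.0, 84.8, 99.5 and 103 CPM and Ltbp4 17.0, 41.6, 44.9, 53.7 and 64.6 CPM. Smad7 did not follow Gdf5, at 175, 148, 133, 134 and 152 CPM, and Fst was highest in the middle, at 15.3, 28.5, 28.8, 23.7 and 15.7 CPM. Ltbp2 did not follow it either, at 5.46, 8.21, 5.05, 8.42 and 4.14 CPM. In dKO the first 4 groups held 76.8, 130, 235 and 231 CPM of Tgfbi and 5.33, 13.0, 35.5 and 52.0 CPM of Inhba, below the E14.5 control in each of them. Only 11 dKO cells had at least 5 Gdf5 UMIs, too few for a value. The E14.5 control groups had median depths of 7160, 6728, 6506.5, 6738 and 7532 UMIs, and the part of depth was not tested.

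**Figure D2:**
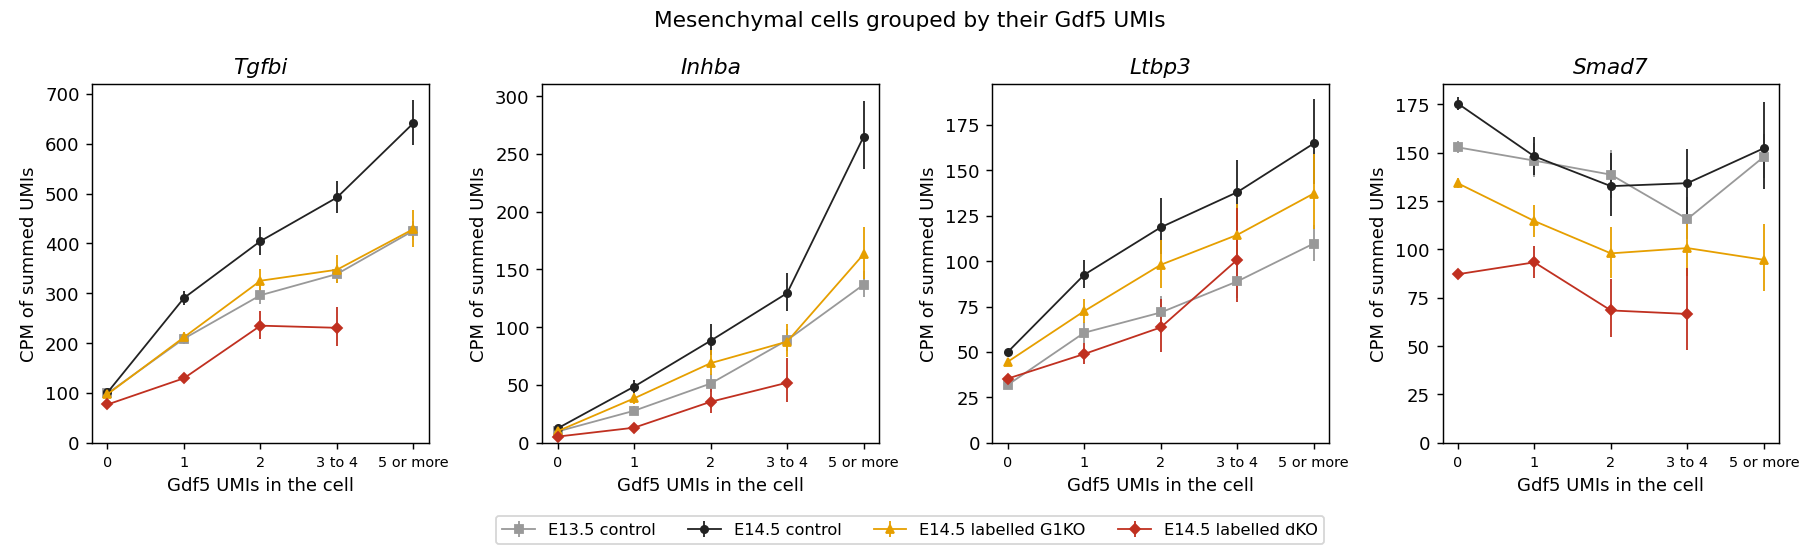
CPM of summed UMIs of Tgfbi, Inhba, Ltbp3 and Smad7 (vertical axes) in mesenchymal cells grouped by the Gdf5 UMIs of the cell (horizontal axes), with 1 line per library and bars for the exact 95% Poisson interval. In the E14.5 control Inhba lies between 12.5 and 265 CPM and is higher in each successive group, while Smad7 lies between 133 and 175 CPM.

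The next comparison set Gdf5-positive cells of the E14.5 control against those of the E13.5 control, 1 day apart in age. Of the 9 genes, 4 were more than 1.5-fold higher at E14.5 and 0 lower, against 21.1% of 11538 genes past 1.5-fold in either direction. These were Ltbp2, Ltbp4, Inhba and Fst. With doublet-like cells left out 2 genes passed, and Ltbp2, at a log2 ratio of 2.37, had too few UMIs to count. Inhba measured 182 against 114 CPM, a log2 ratio of 0.67 (0.52 to 0.82) that fell inside 1.5-fold, at 0.42, with the Gdf5 gate at 1 UMI. Ltbp4 measured 57.9 against 29.8 CPM, a log2 ratio of 0.96. Fst had a log2 ratio of 0.66 with an interval of 0.19 to 1.12, and lay inside 1.5-fold with the gate at 5 UMIs and with doublet-like cells left out (0.42 each). Ltbp2 had the widest ratio, 3.46, and it rests on 21 against 5 UMIs. Ltbp3 (0.57), Tgfbi (0.51) and Ltbp1 (0.41) were higher by less than 1.5-fold, and passed it in cells with under 3 UMIs of Acan and Matn1, at 0.73, 0.69 and 0.66. Ltbp3 and Tgfbi also passed with the Gdf5 gate at 5 UMIs (0.59 each), and Ltbp3 with median-of-ratios scaling (0.60). Smad7 had a ratio of 0.09 and Skil one of -0.26. The median was 0.57 against -0.04 over all genes. Of the 47 other pathway genes 40 were tested, with 10 higher and 2 lower. Among the 10 were Tgfb3 (61.1 against 23.4 CPM), Tgfbr2, Fstl3, Ccn2, Postn (237 against 30.7 CPM) and Tagln. The 12 immediate-early genes summed to 6508 against 4775 CPM, with 6 higher. Fibroblast markers summed to 1380 against 712 CPM and tendon markers to 105 against 35.5 CPM in these cells, and the Xist and Ddx3y levels above differ between these libraries as well. Their part was not tested.

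In Gdf5-positive cells the library labelled dKO was then set against the E14.5 control. Of the 9 genes, 7 were more than 1.5-fold lower in dKO and 0 higher, against 26.1% of 9629 genes past 1.5-fold in either direction and 19.9% lower. Inhba was 3.47-fold lower, at 52.5 against 182 CPM, a log2 ratio of -1.79 (-2.30 to -1.32). Tgfbi measured 245 against 550 CPM, a log2 ratio of -1.17 (-1.39 to -0.95), and Smad7 68.7 against 141 CPM, a log2 ratio of -1.04 (-1.49 to -0.62). Inhba, Tgfbi and Smad7 were thus each lower beyond counting error. Ltbp4 had a log2 ratio of -0.84 and Ltbp1 one of -0.61. Ltbp1 came inside 1.5-fold with median-of-ratios scaling (-0.51), with means over cells (-0.51) and with doublet-like cells left out (-0.46). The ratios of Fst (-0.93, from 8 against 64 UMIs) and Ltbp2 (-0.74, from 3 against 21 UMIs) had intervals that reached above 0, so a difference was not detectable at this depth. Ltbp3 (-0.55) and Skil (-0.36) lay inside 1.5-fold, and both passed it with the Gdf5 gate at 1 UMI, Skil at -0.60. The median of the 9 was -0.84 against -0.13 over all genes. The dKO class held 74 cells and 742280 UMIs. With doublet-like cells left out, 4 of the genes were past 1.5-fold lower, and Fst came inside that limit, at -0.33.

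Of the other pathway genes 38 were tested in this comparison, with 2 higher and 9 lower in dKO, close to the share of all genes past 1.5-fold (26.1%). The list median was -0.21 against -0.13 over all genes, and 6 of the 11 had intervals that reached 0. Tgfbr2, the type II TGF-beta receptor, measured 17.5 against 41.8 CPM, Fstl3 8.08 against 34.8 CPM and Pmepa1 132 against 246 CPM. The target Tagln measured 22.9 against 113 CPM. None of the 4 ligands tested passed 1.5-fold. The interzone markers of these cells were lower in dKO as given above, Gdf5 itself measured 383 against 511 CPM, and tendon markers summed to 57.9 against 105 CPM. Of 4 ATF4 target genes tested 2 were higher, and the whole list, with the genes too low to test, summed to 451 against 253 CPM. Of the 9 hypoxia genes tested 4 were lower and 1 higher, and of the 12 immediate-early genes 3 were lower. Their part in the differences was not tested.

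The library labelled G1KO was set against the E14.5 control in the same way. In Gdf5-positive cells 3 of the 9 genes were past 1.5-fold lower and 0 higher, against 12.2% of 9852 genes in either direction. Inhba measured 119 against 182 CPM, a log2 ratio of -0.61 (-0.80 to -0.42), and Fst 8.62 against 20.6 CPM, a log2 ratio of -1.26 (-1.97 to -0.58). The third was Ltbp2, at 8 against 21 UMIs. Tgfbi (-0.53) and Smad7 (-0.53) were lower by less than 1.5-fold, and Smad7 passed that limit with the Gdf5 gate at 5 UMIs, at -0.69. Ltbp4 had a ratio of 0.14. The median was -0.53 against -0.11 over all genes. Inhba came inside 1.5-fold with TMM scaling, at -0.52, with median-of-ratios scaling, at -0.51, with the Gdf5 gate at 1 UMI, at -0.53, and in cells with under 3 UMIs of Acan and Matn1, at -0.45. Of 38 other pathway genes 1 was higher and 6 lower, among them Tgfb3 (40.1 against 61.1 CPM), Tgfbr2 (21.9 against 41.8 CPM), Fstl3, Pmepa1, Fn1 (145 against 263 CPM) and Tagln. Tendon markers summed to 53.4 against 105 CPM, and interzone markers to 2240 against 3119 CPM. Of 9 hypoxia genes 2 were higher, of 4 ATF4 targets 1 was higher, and of 12 immediate-early genes 1 was lower. The part of these in the differences was not tested. This comparison shares its control library with the dKO comparison, and whether the mutant libraries differ in their distance from it was not tested.

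Without the E14.5 control, the library labelled dKO was compared with the library labelled G1KO, a choice made after seeing the data. Of the 8 genes tested in Gdf5-positive cells, Ltbp4, Inhba and Tgfbi were past 1.5-fold lower in dKO, 3 genes, and 0 were higher, against 21.0% of 9325 genes in either direction. Inhba measured 52.5 against 119 CPM, a log2 ratio of -1.18 (-1.70 to -0.70), Tgfbi 245 against 382 CPM, a log2 ratio of -0.64 (-0.87 to -0.41), and Ltbp4 32.3 against 63.7 CPM, a log2 ratio of -0.98 (-1.65 to -0.36). Both of these libraries had Xist and lacked Ddx3y. The median of the 8 was -0.41 against -0.02 over all genes, TMM scaling moved the ratios by -0.10, and Smad7 then became the fourth gene past 1.5-fold lower. Of 36 other pathway genes 4 were higher, with Bambi at 97.0 against 49.1 CPM, and 5 were lower, with Tagln among them, and 6 of these 9 had intervals that reached 0. Of the 4 ATF4 targets tested 3 were higher in dKO, of 9 hypoxia genes 4 were lower and 1 higher, and of 12 immediate-early genes 3 were lower. The sum of interzone markers was 1262 against 2240 CPM. The part of these lists was not tested.

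The same genotypes were compared in chondrocytes, which border the interzone. In dKO 4 of the 9 genes were past 1.5-fold lower than in the E14.5 control and 0 higher, against 18.1% of 14207 genes in either direction and 12.8% lower. Smad7 was 2.29-fold lower, at 81.5 against 187 CPM, a log2 ratio of -1.20 (-1.25 to -1.14). Inhba had a log2 ratio of -1.81 (-2.11 to -1.52), Fst one of -0.85 and Ltbp4 one of -0.83. In the E14.5 control the chondrocyte levels of Fst and Ltbp4 lay within the erythroid intervals, and that of Inhba lay above. Skil was lower by just under 1.5-fold, at 65.2 against 97.1 CPM (-0.57), and Tgfbi differed little, at 69.6 against 75.3 CPM (-0.11). Chondrocytes of dKO thus had less Smad7 with a similar level of Tgfbi. The median of the 9 was -0.57 against -0.17 over all genes, and TMM scaling moved the ratios by 0.13. Among 42 other pathway genes 3 were higher and 5 lower, with Ccn2 at 17.2 against 59.9 CPM and Klf10 at 26.2 against 60.3 CPM. All 7 ATF4 target genes were higher in these cells, with sums of 820 against 377 CPM, and 4 of 10 hypoxia genes were higher, with sums of 938 against 434 CPM. The hypoxia list holds Slc2a1 itself, and without that gene its sums were 447 against 353 CPM. The 12 immediate-early genes summed to 3991 against 4138 CPM. The part of these lists in the differences was not tested.

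In chondrocytes of G1KO 0 of the 9 genes passed 1.5-fold in either direction, against 9.55% of 14089 genes. The ratios lay between -0.46 for Inhba and 0.14 for Tgfbi, and Smad7 measured 152 against 187 CPM, a log2 ratio of -0.30 (-0.34 to -0.25). The median was -0.20 against -0.10. Of 42 other pathway genes 3 were higher and 2 lower, among them Ccn2 at 31.0 against 59.9 CPM. Hypoxia genes were higher in 7 of 10 cases in this library, with sums of 1004 against 434 CPM, or 534 against 353 CPM without Slc2a1, and ATF4 targets in 3 of 7, with sums of 525 against 377 CPM. Between the mutant libraries, 4 of the 9 genes were past 1.5-fold lower in chondrocytes of dKO, against 9.92% of 14158 genes. They were Smad7, at 81.5 against 152 CPM (log2 ratio -0.90, -0.95 to -0.84), Inhba (-1.35), Fst (-0.63) and Ltbp4 (-0.63). The G1KO levels of Inhba, Fst and Ltbp4 lay within the erythroid intervals, and with TMM scaling 3 of the genes were past that limit. Klf10 and Ccn2 were lower as well, at 26.2 against 49.8 and 17.2 against 31.0 CPM, among 1 higher and 5 lower of 42. Of the 7 ATF4 targets 6 were higher in dKO. The part of these lists was not tested.

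Prehypertrophic, Sfrp2-positive and fibroblast cells were added to the dKO comparison after seeing the data. In prehypertrophic cells 4 of the 7 genes tested were lower in dKO and 0 higher, against 27.7% of 9779 genes in either direction. Smad7 was 4.01-fold lower, at 94.9 against 380 CPM, with a log2 interval of -2.15 to -1.86. Fst measured 3.53 against 22.4 CPM (-2.67), Skil 39.0 against 93.5 CPM (-1.26) and Tgfbi 103 against 184 CPM (-0.84). Smad7 and Skil were thus both lower in dKO in these cells. The median of the 7 was -0.84 against -0.18, and TMM scaling moved the ratios by 0.20, with 4 genes still past 1.5-fold lower. Of the other pathway genes 37 were tested, with 4 higher and 9 lower. Pmepa1 measured 78.2 against 209 CPM, Ccn2 23.3 against 116 CPM, Klf10 16.5 against 82.8 CPM and Tsc22d1 215 against 380 CPM, and Smurf2 was lower too. Of 12 immediate-early genes 11 were lower in dKO, and their sums in the 4 libraries were 2117, 4886, 2663 and 2416 CPM, so the E14.5 control stood above the rest. All 7 ATF4 targets and 7 of 10 hypoxia genes were higher, with sums of 1172 against 486 and 1103 against 430 CPM, the latter 491 against 320 CPM without Slc2a1. The part of these lists was not tested. In G1KO the same cells held 211 CPM of Smad7 (log2 ratio -0.85) and 84.8 CPM of Skil (-0.14).

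Sfrp2-positive cells had 7 of 9 genes past 1.5-fold lower in dKO and 0 higher, against 13.6% of 11988 genes in either direction and 10.2% lower. Tgfbi measured 178 against 379 CPM, a log2 ratio of -1.09 (-1.19 to -0.99), Inhba 29.2 against 65.4 CPM (-1.16) and Ltbp3 72.9 against 132 CPM (-0.85). Ltbp2 (-1.45), Fst (-0.84), Ltbp4 (-0.82) and Skil (-0.68) were the others, and Smad7 (-0.26) and Ltbp1 (-0.14) lay inside 1.5-fold. The median was -0.84 against -0.09 over all genes. Of 42 other pathway genes 0 were higher and 10 lower, with Tagln at 17.6 against 86.0 CPM, Fn1 at 150 against 298 CPM, Pmepa1 at 117 against 216 CPM, and Tgfbr2 and Fstl3 also lower. Interzone markers in these cells summed to 1368, 2317, 1650 and 1212 CPM and the 12 immediate-early genes to 3883, 5443, 5563 and 5395 CPM, so the interzone sum was lower in dKO than in the E14.5 control and the other was close. Tendon markers summed to 55.6 against 151 CPM in these cells. Of 5 ATF4 targets tested 3 were higher, and the whole list, with the genes too low to test, summed to 319 against 234 CPM. Of 10 hypoxia genes 2 were higher and 1 lower. The part of these lists was not tested.

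Fibroblasts had the fewest such genes. There 1 of the 9 genes, Inhba at 10.8 against 20.2 CPM (-0.91, -1.44 to -0.39), was past 1.5-fold lower in dKO and 0 were higher, against 9.92% of 10724 genes in either direction. Tgfbi measured 76.1 against 74.6 CPM (0.03) and Smad7 94.6 against 86.3 CPM (0.13). Ltbp1 was higher by less than 1.5-fold, at 80.0 against 57.5 CPM (0.48). The median was 0.12 against -0.06, and of 38 other pathway genes 1 was higher and 2 lower, with Ccn2 at 13.3 against 21.8 CPM. Of 8 hypoxia genes 3 were higher, of 5 ATF4 targets 2 were higher, and of 12 immediate-early genes 0 passed 1.5-fold. Whether the difference between dKO and control itself differed between classes was not tested.

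**Figure D3:**
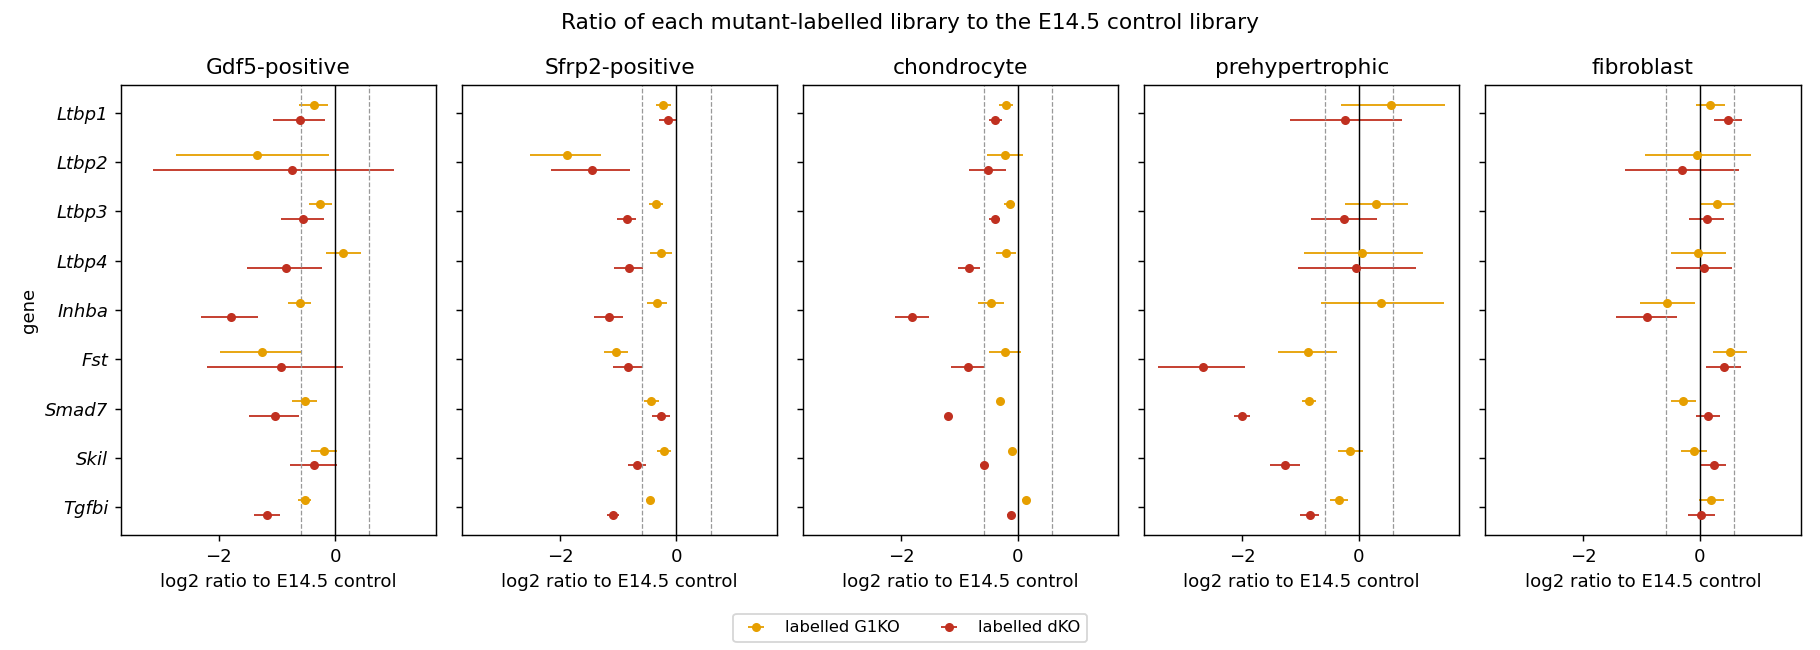
Log2 ratio of each gene in the libraries labelled G1KO and dKO to the E14.5 control (horizontal axes), in 5 classes, with bars for the exact 95% interval and dashed lines at 1.5-fold. Genes with fewer than 20 UMIs in both libraries are left out. In dKO, Inhba lies at -1.79 in Gdf5-positive cells and Fst at -2.67 in prehypertrophic cells, while 8 genes of the fibroblasts lie inside the dashed lines.

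The genes whose levels were most like those of each gene were found over 50 points, each a class of a library with at least 50 cells, among 9472 genes. The points share 4 libraries and differ in depth, and Pearson's r of log2(CPM + 1) is a description only. Ltbp3 was most like Dkk3 (0.95), Fbn2 (0.91), the gene of a fibrillin, and Sgcd (0.91), and Ltbp1 most like Pdgfra (0.94), Adamtsl1 (0.94) and Fstl1 (0.91). Inhba was closest to Robo1 (0.90), Epha7 (0.89) and Pamr1 (0.89), and Tgfbi to Trps1 (0.91), Stxbp6 (0.85) and Pid1 (0.83). Smad7 was closest to Myc (0.87), Id2 (0.85) and Smad6 (0.85), another inhibitory Smad. For Ltbp2 the closest were Fndc1 (0.81), Fmod (0.80) and Col1a1 (0.80), of which Fmod is abundant in tendon. Ltbp4 was closest to Prrg3 (0.85), Cdh13 (0.82) and Tcf4 (0.82), Fst to Rnd3 (0.81), Trim2 (0.81) and Gm10762 (0.79), and Skil to Phax, Lyrm2 and Taf1 (0.83 each). Among the 9 themselves, Inhba followed Ltbp3 (0.84), Ltbp1 (0.82) and Tgfbi (0.73), and Smad7 followed Skil (0.49) and had r between -0.13 and 0.29 with the others.

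Promoter windows of 250 bases before the start, from RefSeq (GRCm38.p6), were searched for 6 of the 9 genes, in 9 entries. Fst and Skil had no window there, and Smad7 was left out of the search, so the counts of matches below do not cover it. Inhba and Tgfbi were both highest in Gdf5-positive cells and both lower in dKO, and their bases upstream of the annotated gene are therefore shown, 5′ to 3′. The capitals mark GTCTG, the other strand of CAGAC, a motif that Smad3 and Smad4 can bind. The windows are chr13:56609336-56609522 for Tgfbi (187 bases) and chr13:16011601-16011850 for Inhba (250 bases), both on the plus strand.
Tgfbi: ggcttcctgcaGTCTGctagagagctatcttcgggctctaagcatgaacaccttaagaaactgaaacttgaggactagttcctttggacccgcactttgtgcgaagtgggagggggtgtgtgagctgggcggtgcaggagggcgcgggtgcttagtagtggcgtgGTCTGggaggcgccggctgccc
Inhba: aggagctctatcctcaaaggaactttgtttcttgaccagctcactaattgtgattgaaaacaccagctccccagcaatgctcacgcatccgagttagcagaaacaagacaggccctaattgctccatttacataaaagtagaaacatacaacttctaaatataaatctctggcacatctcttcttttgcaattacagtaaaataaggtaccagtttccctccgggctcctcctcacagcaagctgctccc
CAGAC was searched on both strands, and 42.2% of 32851 promoter windows of 250 bases held it. Tgfbi had 2 matches and Inhba 0, Ltbp2 had 2, the entries of Ltbp1 had 1 and 2, Ltbp3 had 1 and Ltbp4 had 0. TGANTCA, the motif of AP-1, whose letters read the same on both strands, was in 6.75% of all windows and in 0 of the 9 entries. A match describes letters and not a bound site, and so does its absence.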

How the data were processed

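Single-cell 3′ RNA libraries of 4 samples were read from the deposited tables. Per the file headers, the authors made these counts of UMIs with Cell Ranger 6.1.2, and the notes of the submitters name mm10 and Seurat 3. The counts were raw and covered called cells. A cell was kept if it had between 200 and 6000 genes and no more than 10% of its UMIs from mitochondrial genes, which left out 183, 89, 80 and 67 cells with more genes, 27, 94, 112 and 66 with fewer and 119, 226, 264 and 175 above the mitochondrial limit, some of them by more than 1 rule. Each kept cell went to the first class whose gate it passed. Erythroid cells had at least 10% haemoglobin UMIs, and other gates needed 2 or 3 UMIs of their markers. Classes under 50 cells were not given.

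CPM, log2 ratios, exact Poisson intervals and conditional binomial intervals were computed with Python 3.11.15, numpy 2.4.6, scipy 1.17.1 and pandas 2.3.3, and figures drawn with matplotlib 3.10.9. The scripts were tested on simulated data. With 1 library per group no test between groups was made. TMM factors came from edgeR 4.0.16 in R 4.3.3, and coordinates from GENCODE M21.

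Genes counted had at least 20 UMIs in 1 of the groups compared. All 9 genes are named. Of 47 other pathway genes all past 1.5-fold were counted, and ligands, receptors, inhibitors and targets with at least 20 CPM could be named. The 3 genes most like each were named among those with at least 20 CPM at 1 point. Ddit3, in the ATF4 list, has 2 identifiers and both were used. The genes and lists were chosen with earlier results of these data known. The alternatives were other Gdf5 and chondrocyte gates, a stricter cell filter, TMM and median-of-ratios scaling, means over cells, doublet-like cells left out, all other mesenchymal cells as the comparison, 100 UMIs and 2-fold limits, and, after seeing the data, no Sox10 gate and the hypoxia list without Slc2a1. Cells of the Sox10 gate are among the classes ranked and the points correlated, and their own values are not given. Droplets without cells were not used here, so free RNA was judged from erythroid cells, among which doublets with other cells were not excluded.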

Additional observations from a re-analysis of the deposited data

Results flagged for a closer look

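The following log2 ratios of a gene had opposite signs in different cell classes of the same comparison, which is what drew attention to them. Inhba in the library labelled G1KO against the E14.5 control had 0.86 in tendon cells and -0.61 in Gdf5-positive cells.

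The rest compare the E14.5 control with the E13.5 control. Ltbp1 had 0.91 in tendon and 0.78 in Sfrp2-positive cells and -0.99 in prehypertrophic cells, whose levels of 9.84 and 4.94 CPM lay within the erythroid intervals and cannot be told apart from free RNA. For Fst the ratio was 0.66 in Gdf5-positive, 1.44 in prehypertrophic and 1.12 in Sfrp2-positive cells and -2.45 in muscle cells. Tgfbi had 1.38 in prehypertrophic and 1.03 in Sfrp2-positive cells, and -0.60 in muscle cells and -0.73 in chondrocytes. The muscle levels of 18.1 and 11.9 CPM lay below the 35.4 and 30.3 CPM of erythroid cells, so that ratio cannot be told apart from one of free RNA. None of these differences between classes was tested.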

How the results depend on the processing

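Of 75 counts of genes past 1.5-fold taken under alternatives, 68 stayed within 1.5 times the main count and 7 moved. Of 548 log2 ratios 461 stayed within their main interval, 85 moved out of it and 2 reversed. Of 75 shares of all genes 12 moved by over 1.5 times, and 58 of 234 CPM values left their interval. Fst at E13.5 in Gdf5-positive cells went to -0.59 against all other mesenchymal cells, and Ltbp2 at E14.5 to -0.0045 with a Gdf5 gate at 5 UMIs, and the cause was not tested. In the age comparison the 4 genes became 2 with doublet-like cells left out and 1 at 2-fold, and 6 with under 3 UMIs of Acan and Matn1. In dKO against the E14.5 control the 7 genes of Gdf5-positive cells became 4 with doublet-like cells left out and 3 at 2-fold, and all 9 passed with the Gdf5 gate at 1 UMI, while the 4 of chondrocytes became 2 at 2-fold. In G1KO the 3 genes became 1 with under 3 UMIs of Acan and Matn1 and 1 at 100 UMIs. The 2-fold and 100 UMI limits are stricter by construction, and for the others the cause was not tested. Inhba in Gdf5-positive cells of dKO lay between -2.28 and -1.69 under the alternatives that could be run, and Tgfbi between -1.28 and -0.92. Smad7 at E13.5 passed 1.5-fold lower under 7 alternatives, and Skil in chondrocytes of dKO under 2. In dKO, 11 cells with at least 5 Gdf5 UMIs and 49 with little Acan and Matn1 were too few for these alternatives. No library could be left out, and no paired analysis was possible because each group has 1 library. With 742280 UMIs in its Gdf5-positive cells, dKO limits what can be seen in Fst and Ltbp2.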
